A study of Mus musculus with 14 samples.

Results

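Sarcoplasmic reticulum calcium handling genes are the 9 genes Ryr2, Casq2, Trdn, Hrc, Atp2a2, Pln, Slc8a1, Camk2d and S100a1, chosen by symbol. All 9 had values in the comparison of AAV-CTRP9 with AAV-Luc hearts, among 13219 gene symbols, and 2 of them, Pln and Slc8a1, were listed in the comparison of KO with WT hearts, among 1230 symbols. Each symbol is represented by its most abundant transcript. In a heart muscle cell, a small calcium current through the cell membrane opens release channels of the sarcoplasmic reticulum (SR), the internal calcium store, and the released calcium starts contraction. Relaxation follows when a calcium pump returns calcium to the store and an exchanger carries the rest out of the cell. The speed of pumping is held back by phospholamban, and kinases lift that brake, so this set of genes is much studied in hearts with impaired filling.

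The study asked how CTRP9, a secreted glycoprotein encoded by C1qtnf9, acts on the heart under a high-fat diet (HFD). Hearts of 4 homozygous CTRP9 knock-out (KO) mice were set against 3 wild-type (WT) hearts. Hearts of 4 WT mice given an adeno-associated virus of serotype 9 that carries the C1qtnf9 reading frame (AAV-CTRP9) were set against 3 hearts of WT mice given the same vector with Renilla luciferase (AAV-Luc). The deposited titles of the 3 AAV-Luc samples begin with CTRP9, whereas their treatment and description labels name luciferase, and the treatment label was followed. Both vectors used a troponin T promoter, chosen for heart muscle cells, and AAV-Luc hearts still had their own C1qtnf9. The mice were male C57BL/6J animals of 7 to 9 weeks at the start. All 4 groups received HFD with 60% of its energy from fat for 12 weeks, the vectors were given as 1e12 viral genomes per mouse into the tail vein, and the mice were fasted for 6 hours before their hearts were taken. Heart tissue was sequenced in bulk, so fewer heart muscle cells and less RNA per heart muscle cell cannot be told apart.

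C1qtnf9 itself was read 3 times in all 4 KO hearts together, against 1476 times in the 3 WT hearts (481 to 498 in each). In AAV-CTRP9 hearts it had 109, 67.0, 44.3 and 59.6 CPM (reads scaled to library size), against 26.3, 18.8 and 16.1 CPM in AAV-Luc hearts. Those groups did not overlap, although the difference did not pass the adjusted threshold (log2 fold change 1.73 ± 0.26 SE, adjusted p = 0.106, limma with Benjamini-Hochberg adjustment). It passed without Luc_614, a library that stood apart, at 1.93 ± 0.22 (adjusted p = 0.000846). Library totals were 15587701 to 18959587 reads in KO hearts and 14978278 to 18377715 reads in WT hearts. For the AAV experiment, the reads over all listed transcripts summed to 23498500 to 29061002 in AAV-CTRP9 hearts and 24982135 to 29369196 in AAV-Luc hearts. Transcripts of the same gene that share reads add them more than once, so these sums are not library totals. The 11 cardiomyocyte markers examined, such as Myh6, Tnnt2 and Mb, were all present and summed to 26441 to 27009 CPM in AAV-CTRP9 hearts and 23559 to 25656 CPM in AAV-Luc hearts. The 6 leukocyte markers summed to 97.9 to 104 CPM in AAV-CTRP9 hearts and 143 to 148 CPM in AAV-Luc hearts. The 6 fibroblast markers summed to 353 to 394 CPM in AAV-CTRP9 hearts and 426 to 494 CPM in AAV-Luc hearts. In each of these 2 lists 5 markers had a fold below 0 and 1 above it. Those above were Ptprc at 0.25 (log2, -0.40 without Luc_614) and Pdgfra at 0.13 (0.03 without Luc_614). The sums overlapped for 5 erythroid markers (118 to 184 CPM in AAV-CTRP9 hearts, 139 to 724 CPM in AAV-Luc hearts), for 4 of 5 smooth muscle markers (260 to 296 CPM in AAV-CTRP9 hearts, 258 to 275 CPM in AAV-Luc hearts) and for 5 endothelial markers (391 to 402 CPM in AAV-CTRP9 hearts, 372 to 426 CPM in AAV-Luc hearts). Of the 6 atrial markers, 2 had values (Myl4 and Nppa), with sums of 17.8 to 34.6 CPM in AAV-CTRP9 hearts and 18.6 to 60.6 CPM in AAV-Luc hearts. Casq1 was the only one of 10 skeletal muscle markers with values, at 2.11 to 3.68 CPM in AAV-CTRP9 hearts and 1.55 to 3.57 CPM in AAV-Luc hearts, and no adipocyte marker of 5 had one. Without Luc_614 the erythroid sums of the AAV-CTRP9 and AAV-Luc hearts did not overlap. All 5 erythroid, 3 of 6 leukocyte, 3 of 6 fibroblast and 1 of 4 smooth muscle markers (Acta2) were then lower past the adjusted threshold. Of all 13219 genes, 121 were lower and 29 higher past it in that fit (1.13% in either direction).

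One AAV-Luc library, Luc_614, stood apart from the other 6 AAV hearts in a way that touched these genes. Over all genes, its level relative to the mean of the other 6 hearts had a median of -0.52 (log2) for transcripts with under 40% G and C (GC content) and of 0.15 for those with 55% or more. Transcripts of 8000 bases or longer lay at a median of -0.31, and those under 1000 bases at 0.12. In each of the other 6 hearts, the matching median for transcripts under 40% GC lay between 0.06 and 0.15. Each of these hearts was set against a mean that included Luc_614. At 55% GC or more the median was -0.10 in Luc_624 and lay between -0.02 and 0.003 in the remaining hearts. Of the 9 members, 5 were lower in Luc_614 than in every other heart (Ryr2, Trdn, Atp2a2, Pln and Slc8a1) and 1, S100a1, was higher than in every other heart. Trdn, with 36.8% GC over 4514 bases, stood at -1.47, and Ryr2, with 49.6% GC over 16814 bases, stood at -0.93. Pln (38.6% GC) stood at -0.30 and S100a1 (53.9% GC over 677 bases) at 0.32. The AAV fold changes of the members, of the named further genes and of the lists are therefore given with and without this heart. To show the base composition of the 3 members that moved most in Luc_614, the middle 60 bases of each coding sequence follow, with G and C in capitals (GENCODE M21 transcripts, GRCm38).
Trdn (chr10:33258114-33305069, plus strand): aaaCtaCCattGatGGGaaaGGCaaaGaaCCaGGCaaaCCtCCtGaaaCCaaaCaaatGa
Ryr2 (chr13:11709947-11710006, minus strand): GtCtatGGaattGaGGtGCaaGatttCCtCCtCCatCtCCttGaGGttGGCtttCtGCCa
S100a1 (chr3:90511335-90512025, minus strand): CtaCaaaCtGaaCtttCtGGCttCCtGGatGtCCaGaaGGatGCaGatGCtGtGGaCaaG
G and C made up 25 of the 60 bases in Trdn and 29 of 60 in both Ryr2 and S100a1. The pieces of Ryr2 and S100a1 thus held the same number, while their transcripts differed most in length among the 9 members. The pieces of Trdn and S100a1 span exon junctions, so their coordinates include introns.

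**Figure D1:**
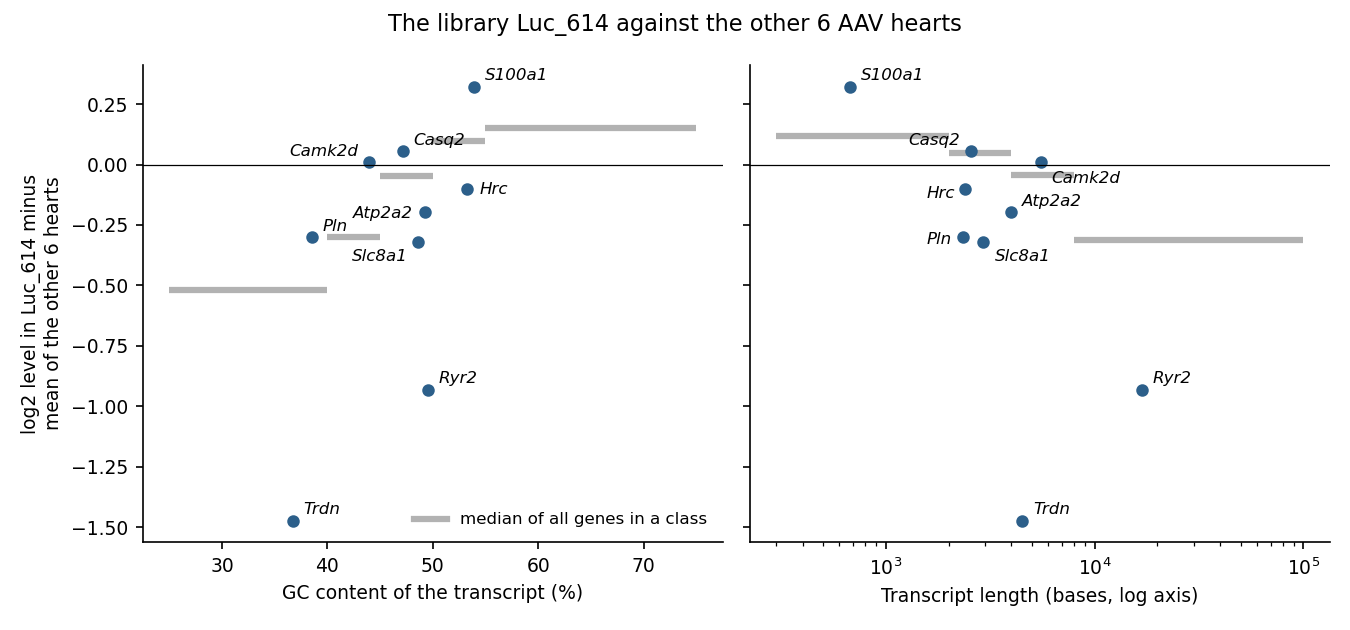
Level in the library Luc_614 minus the mean of the other 6 AAV hearts (log2, vertical axes) against transcript GC content (left) and transcript length (right, log axis) for the 9 genes, with grey bars for the median of all genes in each class. Trdn at -1.47 and Ryr2 at -0.93 lie far below the medians of their classes, and S100a1 at 0.32 lies above its own.

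No member passed an adjusted p of 0.05 between AAV-CTRP9 and AAV-Luc hearts, where 2 of 13219 genes did (0.0151%, both lower), and the members' adjusted p ranged between 0.539 and 0.899 (limma, Benjamini-Hochberg). At an unadjusted p under 0.05, 1 of the 9 members remained, Pln, against 8.67% of all genes. AAV-CTRP9 and AAV-Luc hearts overlapped for all 9 members, while they did not overlap for 9.02% of all genes. The fold change was above 0 for 8 members and below 0 for S100a1, with a median of 0.14 (log2) beside 0.03 over all genes, of which 57.0% lay above 0. Without Luc_614, 6 members lay above 0 and Ryr2, Slc8a1 and S100a1 below, with a median of 0.09. The count of 0 members past the threshold held for all 19 alternatives tried, edgeR and DESeq2 on recovered reads included. Where the intervals below are wide, differences of that size were not detectable with 4 and 3 hearts.

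**Figure D2:**
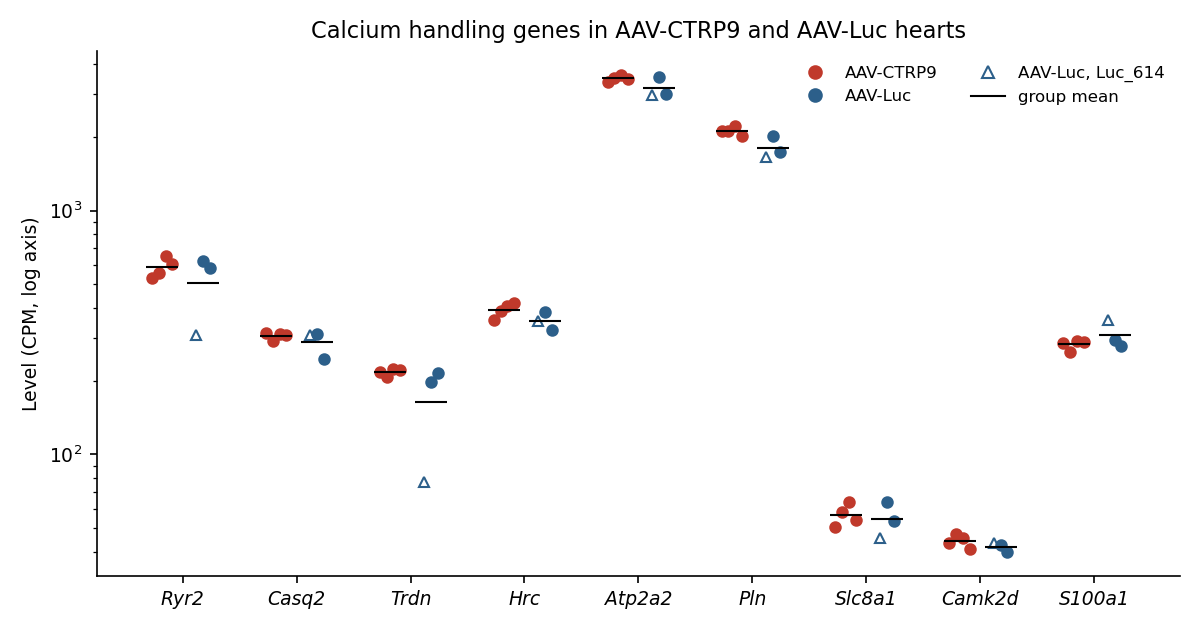
Level of each gene in CPM (log axis) in every AAV heart, with AAV-CTRP9 hearts in red on the left and AAV-Luc hearts in blue on the right of each pair, Luc_614 as an open triangle and group means as lines. The 2 groups overlap for every gene, and Luc_614 lies at 77.2 CPM for Trdn and 309 CPM for Ryr2.

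Of the release unit, the fold changes of Ryr2 and Trdn moved close to 0 without Luc_614, and those of Casq2 and Hrc did not. Ryr2 encodes the cardiac ryanodine receptor, the release channel, and lies on chromosome 13 of GRCm38 from 11553102 to 12106945 (minus strand, 105 exons in ENSMUST00000021750). It had 527, 557, 652 and 606 CPM in AAV-CTRP9 hearts, against 309, 620 and 580 CPM in AAV-Luc hearts. The AAV-CTRP9 values lay around the 2 higher AAV-Luc values, and Luc_614 was at 52.3% of the mean of the other 6 hearts. Ryr2 had a log2 fold change of 0.28 ± 0.20 (SE, adjusted p = 0.703, limma), with a 95% interval of -0.17 to 0.72. Without Luc_614 it was -0.04 ± 0.09.

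Trdn encodes triadin, which ties the calcium buffer of the store to the release channel, and lies on chromosome 10 from 33080554 to 33476709 (plus strand, 38 exons in ENSMUST00000095762). It had 218, 208, 225 and 223 CPM in AAV-CTRP9 hearts, against 77.2, 198 and 215 CPM in AAV-Luc hearts. Luc_614 was again the low heart, at 36.0% of the mean of the others, whereas the other 6 hearts spanned only 0.18 on the log2 scale. Trdn had the largest log2 fold change of the 9 genes, 0.55 ± 0.28 (SE, adjusted p = 0.610), with an interval of -0.06 to 1.17, and it was 0.08 ± 0.07 without Luc_614. With GC content and length trends removed from each library, it was 0.39 ± 0.17 (adjusted p = 0.424).

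Casq2 encodes cardiac calsequestrin, the main calcium buffer inside the store, and lies on chromosome 3 from 102086415 to 102146514 (plus strand, 11 exons in ENSMUST00000029454). It had 315, 292, 311 and 308 CPM in AAV-CTRP9 hearts, against 308, 311 and 246 CPM in AAV-Luc hearts. The low value here was that of Luc_624, not of Luc_614. The fold change was 0.09 ± 0.09 (adjusted p = 0.796, 95% interval -0.11 to 0.29), and it was -0.02 ± 0.06 without Luc_624 and 0.14 ± 0.09 without Luc_614. Hrc encodes the histidine-rich calcium binding protein of the store, on chromosome 7 from 45335290 to 45338974 (plus strand, 6 exons in ENSMUST00000085351). It had 357, 389, 408 and 416 CPM in AAV-CTRP9 hearts, against 352, 385 and 325 CPM in AAV-Luc hearts. The highest 3 hearts were AAV-CTRP9 hearts, while CTRP9_609 lay among the AAV-Luc hearts. Hrc had a fold change of 0.15 ± 0.09 (adjusted p = 0.639), with an interval of -0.04 to 0.34, and it was 0.15 without Luc_614, 0.09 without Luc_624 and 0.21 without Luc_615.

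The uptake side held the 2 most abundant members. Atp2a2 encodes SERCA2, the pump that refills the store, and lies on chromosome 5 from 122453513 to 122502225 (minus strand, 21 exons in ENSMUST00000177974). It had 3356, 3509, 3609 and 3461 CPM in AAV-CTRP9 hearts, against 2975, 3530 and 3018 CPM in AAV-Luc hearts. Luc_615 was as high as the AAV-CTRP9 hearts and the other 2 AAV-Luc hearts were lower than all of them. For Atp2a2 the fold change was 0.14 ± 0.09 (adjusted p = 0.687, 95% interval -0.07 to 0.35), and 0.09 ± 0.10 without Luc_614.

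Pln encodes phospholamban, the small membrane protein that inhibits the pump until kinases phosphorylate it. It lies on chromosome 10 from 53337667 to 53345987 (plus strand, 2 exons in ENSMUST00000046221). Its whole coding sequence before the stop codon is shown because both comparisons of the study touch this gene, again with G and C in capitals (GENCODE M21, GRCm38).
Pln (chr10:53343864-53344019, plus strand): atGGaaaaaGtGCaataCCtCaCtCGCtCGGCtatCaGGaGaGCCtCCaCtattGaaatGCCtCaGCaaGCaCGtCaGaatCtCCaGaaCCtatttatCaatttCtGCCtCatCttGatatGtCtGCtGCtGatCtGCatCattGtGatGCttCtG
The 156 bases form 52 codons and hold 70 G or C. The annotated RNA Gm47644 on the opposite strand covers 1833 bases of the exons of this transcript and Cep85l covers 141, and the sources used here do not say whether the counting used the strand, so their reads cannot be told apart from those of Pln. Pln had 2110, 2128, 2232 and 2027 CPM in AAV-CTRP9 hearts, against 1654, 2031 and 1737 CPM in AAV-Luc hearts. In AAV-CTRP9 hearts, 3 values lay above all AAV-Luc hearts, and CTRP9_620 and Luc_615 were nearly level. For Pln the log2 fold change was 0.24 ± 0.09 (SE), with a 95% interval of 0.03 to 0.44 before adjustment, and its adjusted p over all genes was 0.539. It was 0.18 ± 0.10 without Luc_614 (adjusted p = 0.479) and 0.09 ± 0.10 with GC content and length trends removed (adjusted p = 0.753). The same removal moved Hrc to 0.21, Atp2a2 to 0.17 and Slc8a1 to 0.10, each further from 0. Ryr2 moved to 0.18, S100a1 to -0.08 and Camk2d to -0.01, each nearer to 0, and Casq2 stayed at 0.09.

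**Figure D3:**
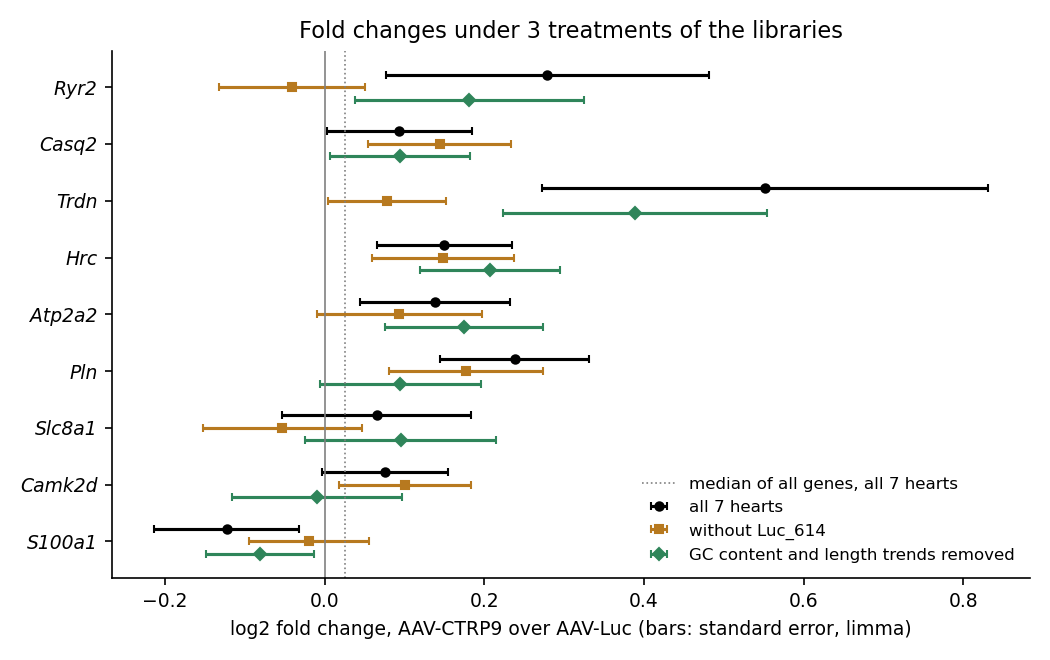
Log2 fold change of each gene, AAV-CTRP9 over AAV-Luc, with standard errors, from all 7 hearts (black circles), without Luc_614 (ochre squares) and with GC content and length trends removed (green diamonds). The dotted line marks the median of all genes, 0.03, and Trdn moves from 0.55 with all hearts to 0.08 without Luc_614.

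The pump and its inhibitor were also compared within each heart, where the scaling between libraries cancels. AAV-CTRP9 hearts had 1.59, 1.65, 1.62 and 1.71 Atp2a2 reads per Pln read, against 1.80, 1.74 and 1.74 in AAV-Luc hearts. All AAV-CTRP9 hearts lay below all AAV-Luc hearts. On the log2 scale, Atp2a2 relative to Pln averaged 0.71 ± 0.04 in AAV-CTRP9 hearts and 0.81 ± 0.03 in AAV-Luc hearts (SD, n = 4 and 3), a difference of -0.10. A 2-sided exact permutation test over the 35 splits gave p = 0.0571, where 0.0286 is the smallest the design allows, and 0.114 after Benjamini-Hochberg adjustment over the 2 relations tested. Pln has the lower GC content of the pair, 38.6% against 49.3% for Atp2a2, and with GC content and length trends removed the difference turned to 0.08 (exact p = 0.8). Without Luc_614 it was -0.08 (exact p = 0.133).

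Per kilobase of transcript, Pln had 904, 912, 956 and 869 CPM per kb in AAV-CTRP9 hearts and 709, 870 and 744 CPM per kb in AAV-Luc hearts. Atp2a2 had 842, 881, 906 and 869 CPM per kb in AAV-CTRP9 hearts and 747, 886 and 758 CPM per kb in AAV-Luc hearts. With these transcripts the 2 genes were at a like level per length, with Pln the higher in 3 AAV-CTRP9 hearts and the lower in all 3 AAV-Luc hearts. The Pln transcript used has 2334 bases, and another of 1715 bases had the same values in every heart. Its shorter length would raise every Pln value per kb, so the order of the 2 genes depends on the transcript chosen.

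**Figure D4:**
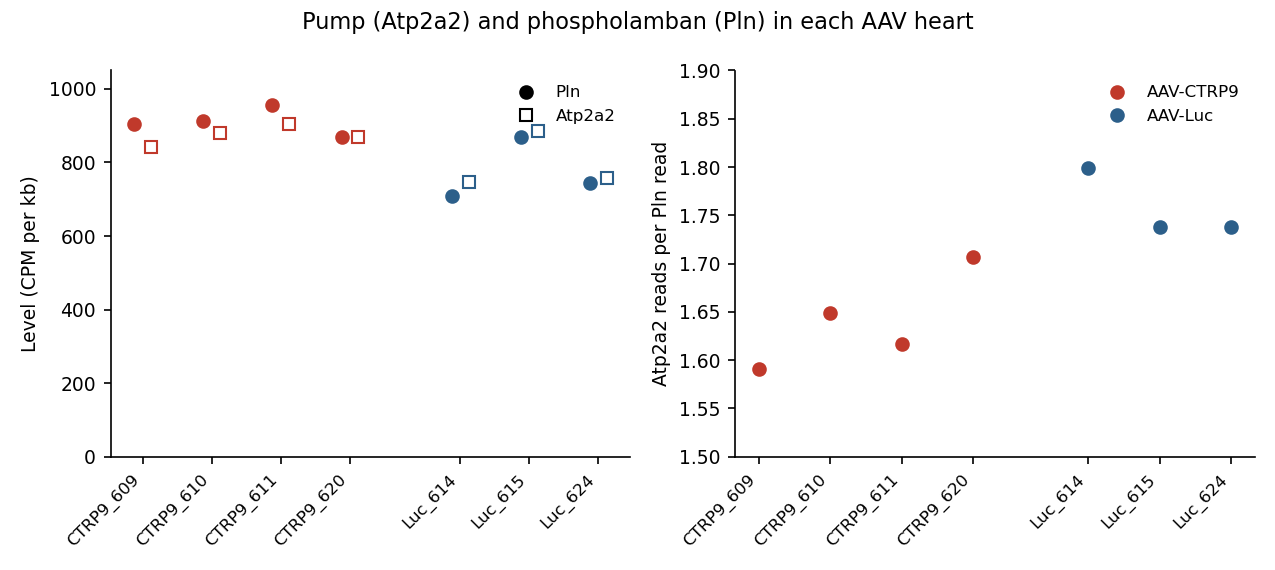
Level of Pln (filled circles) and Atp2a2 (open squares) in CPM per kb of transcript in each AAV heart (left), and Atp2a2 reads per Pln read on an axis that does not start at 0 (right), with AAV-CTRP9 hearts in red and AAV-Luc hearts in blue. The ratio lies between 1.59 and 1.71 in AAV-CTRP9 hearts and between 1.74 and 1.80 in AAV-Luc hearts.

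Slc8a1 encodes the sodium-calcium exchanger of the cell membrane, which carries calcium out of the cell during relaxation, and lies on chromosome 17 from 81373105 to 81738377 (minus strand, 10 exons in ENSMUST00000086538). It had 50.5, 58.1, 63.7 and 53.6 CPM in AAV-CTRP9 hearts, against 45.6, 63.8 and 53.4 CPM in AAV-Luc hearts. The groups covered the same range apart from Luc_614, the lowest heart. Slc8a1 thus had a fold change of 0.07 ± 0.12 (adjusted p = 0.899, 95% interval -0.20 to 0.33) and -0.05 ± 0.10 without Luc_614. Relative to Atp2a2 in the same heart, Slc8a1 averaged -5.95 ± 0.10 on the log2 scale in AAV-CTRP9 hearts and -5.88 ± 0.13 in AAV-Luc hearts (SD, n = 4 and 3). The difference between the groups was -0.07 (2-sided exact permutation test, p = 0.4, also after adjustment over the 2 relations). It was -0.15 without Luc_614 (exact p = 0.133) and -0.03 without Luc_615 (exact p = 0.8).

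The 2 regulators did not pass the threshold either, and their fold changes had opposite signs. Camk2d encodes the delta chain of the calmodulin-dependent kinase that phosphorylates the release channel and phospholamban, on chromosome 3 from 126596302 to 126846326 (plus strand, 19 exons in ENSMUST00000199300). It had 43.2, 47.1, 45.6 and 40.8 CPM in AAV-CTRP9 hearts, against 43.4, 42.4 and 39.9 CPM in AAV-Luc hearts. Only CTRP9_610 and CTRP9_611 lay above all AAV-Luc hearts. Camk2d had a fold change of 0.08 ± 0.08 (adjusted p = 0.816, 95% interval -0.10 to 0.25) and of 0.10 ± 0.08 without Luc_614, and the 9 transcripts listed for it, which share reads, gave folds of 0.05 to 0.08. S100a1 encodes a small calcium sensor that binds the release channel and the pump, on chromosome 3 from 90511034 to 90514392 (minus strand, 3 exons in ENSMUST00000060738). It had 286, 264, 292 and 289 CPM in AAV-CTRP9 hearts, against 355, 295 and 279 CPM in AAV-Luc hearts. Luc_614 was the highest heart, at 125% of the mean of the other 6. S100a1 had a fold change of -0.12 ± 0.09 (adjusted p = 0.715, interval -0.32 to 0.08) and -0.02 ± 0.07 without Luc_614.

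Per kilobase of the transcripts used, the 9 genes fell into a steady order over the 7 AAV hearts. The median was 870 CPM per kb for Pln and 869 CPM per kb for Atp2a2, and this pair overlapped. The closeness of this pair rests on the 2334-base Pln transcript, as the tied shorter one would place Pln higher. S100a1 followed at 427 CPM per kb, Hrc at 160 CPM per kb and Casq2 at 120 CPM per kb. With these transcripts each of them was separated from its neighbours in every heart. Another Hrc transcript, of 607 bases against the 2411 used, had nearly the same values in every heart. Its shorter length would raise every Hrc value per kb, so the place of Hrc in the order depends on the transcript chosen. Trdn came next at 47.7 CPM per kb and overlapped with Ryr2 at 34.5 CPM per kb, which in turn overlapped with Slc8a1 at 18.4 CPM per kb. Both overlaps came through Luc_614, where Trdn had 17.1 and Ryr2 18.4 CPM per kb. Camk2d was lowest at 7.83 CPM per kb, between 7.22 and 8.53 CPM per kb in all hearts.

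The members also differed in how much they varied between hearts. The standard deviation of log2 CPM over the 7 AAV hearts was 0.56 for Trdn and 0.37 for Ryr2, and between 0.08 and 0.18 for the other 7 genes. The genes most like Trdn over these hearts, among those with a mean of at least 10 CPM, were Usp34, Rb1cc1 and Ttn, at a root mean square distance of 0.05 (log2, profiles centred on their means). Those like Ryr2 included Hnrnph1 and Nfat5, at 0.04 and 0.07. Each of these 5 genes was low in Luc_614, by -0.90 to -1.56 against the mean of the other hearts. Trdn and Ryr2 varied mostly through that heart, so genes picked for a like profile had to be low there.

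Of 72 further calcium handling genes in 5 lists, 60 had values in the AAV hearts and none passed the adjusted threshold with all 7 hearts. At an unadjusted p under 0.05, 5 of the 60 (8.33%) remained, against 8.67% of all genes. All 5 were higher, where 4.3% of all genes were higher and 4.36% lower. Without Luc_614, 4 of the 60 remained at that p, all higher, where 6.69% of all genes were higher and 5.92% lower. The median fold was 0.06 (log2) beside 0.03 over all genes, and 0.05 beside 0.03 without Luc_614. Without that heart Rrad was the 1 gene of the 60 past the adjusted threshold, at which 1.13% of all 13219 genes then passed. Rrad encodes a small GTPase that holds back the L-type calcium channel, and it had 91.2, 82.0, 90.7 and 90.0 CPM in AAV-CTRP9 hearts, against 89.2, 62.1 and 55.6 CPM in AAV-Luc hearts. Here Luc_614 lay with the AAV-CTRP9 hearts and above the other 2 AAV-Luc hearts. Rrad had a log2 fold change of 0.39 ± 0.14 with all hearts (adjusted p = 0.500) and of 0.59 ± 0.08 without Luc_614 (adjusted p = 0.00221, limma).

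Among 18 of 20 genes of the release unit and other SR residents, 12 lay above 0 and 6 below, and without Luc_614 these were 11 and 7. Itpr1, a release channel opened by inositol trisphosphate, averaged 19.6 ± 1.89 CPM in AAV-CTRP9 hearts and 16.0 ± 2.15 CPM in AAV-Luc hearts (SD, n = 4 and 3, adjusted p = 0.529), and its fold was 0.30 (log2) with all hearts and 0.22 without Luc_614. Speg, a kinase of the junction between store and membrane, averaged 169 ± 9.67 CPM in AAV-CTRP9 hearts and 184 ± 11.4 CPM in AAV-Luc hearts (adjusted p = 0.674), a fold of -0.12 and, without Luc_614, of -0.14. Dhrs7c and Itpr3 stood at 0.13 and 0.14 (log2) with all hearts, and at 0.20 and 0.13 without Luc_614. Of the small regulators of the pump and its relatives, only Atp2a3 of 6 genes had values, at -0.11 ± 0.13 (log2, SE) and, turned in sign, at 0.02 ± 0.12 without Luc_614, and Sln, Mrln, Strit1, Arln and Atp2a1 were not analysed here.

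For calcium entry and extrusion at the cell membrane, 14 of 17 genes had values, 10 above 0 and 4 below, with a median of 0.11, or of 0.07 with the same 10 and 4 counted without Luc_614. Stim2, a calcium sensor of the store, averaged 11.5 ± 1.06 CPM in AAV-CTRP9 hearts and 9.65 ± 0.997 CPM in AAV-Luc hearts (adjusted p = 0.572). Its groups did not overlap, as for 3 of the 60 further genes and for 9.02% of all genes. The fold of Stim2 was 0.25 and, without Luc_614, 0.28. The plasma membrane pumps Atp2b1 and Atp2b4 stood at 0.34 ± 0.17 and -0.16 ± 0.09 (log2, SE), and at 0.06 ± 0.08 and -0.10 ± 0.09 without Luc_614. Atp2b1 had 11.7 CPM in Luc_614, below the 20.2 CPM of Luc_615 and the 21.3 CPM of Luc_624. Of 20 kinases, phosphatases and anchors, 19 had values, 14 above 0 and 5 below, also without Luc_614. Camk2g, another chain of the calmodulin-dependent kinase, averaged 30.8 ± 2.81 CPM in AAV-CTRP9 hearts and 25.5 ± 1.94 CPM in AAV-Luc hearts without overlap (adjusted p = 0.500), with a fold of 0.27 and, without Luc_614, of 0.33. Akap6, an anchor for kinases near the store, averaged 99.3 ± 10.5 CPM in AAV-CTRP9 hearts and 81.3 ± 14.5 CPM in AAV-Luc hearts (adjusted p = 0.559), and its fold was 0.30 with all hearts and 0.14 without Luc_614. Ppp1cb and Pde4d stood at 0.17 and 0.27 (log2), and at 0.07 and 0.05 without Luc_614. Of 9 genes for mitochondrial calcium, 8 had values, 7 of them above 0, and 6 without Luc_614. Micu2, a gatekeeper of the mitochondrial calcium channel and the gene with the smallest p among them, had 34.4 ± 3.30 CPM in AAV-CTRP9 hearts and 30.1 ± 0.509 CPM in AAV-Luc hearts without overlap (adjusted p = 0.578), a fold of 0.19 and, without Luc_614, of 0.18. Smdt1 and Micu3 stood at 0.10 and 0.22 (log2), and at 0.16 and -0.14 without Luc_614.

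For KO and WT hearts, the deposited table was limited by the authors to transcripts whose unadjusted p on these same hearts was under 0.05, so its values describe genes already chosen and the p-values below are not independent evidence. Of the 9 members, Pln and Slc8a1 were listed, and the other 7 were not analysed here for this comparison. Pln had 66258, 66077, 64378 and 66600 normalized counts in KO hearts, against 62975, 53242 and 61545 in WT hearts. All KO hearts lay above all WT hearts, and the library WT_B was well below the other 2 WT hearts. Pln averaged 65828 ± 991 normalized counts in KO hearts and 59254 ± 5256 in WT hearts (SD, n = 4 and 3), and took 0.388% to 0.401% of all reads in KO hearts and 0.313% to 0.361% in WT hearts. This is a log2 fold change of 0.15 ± 0.07 (SE, adjusted p = 0.0549 over the listed genes, edgeR), which was 0.08 ± 0.07 without WT_B (adjusted p = 0.250) and 0.20 ± 0.07 without WT_A (adjusted p = 0.0416).

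Slc8a1 had 3983, 3763, 3842 and 3912 normalized counts in KO hearts, against 4207, 4649 and 4822 in WT hearts. All KO hearts lay below all WT hearts, with WT_A nearest to them. Slc8a1 averaged 3875 ± 94.4 normalized counts in KO hearts and 4559 ± 317 in WT hearts (SD, n = 4 and 3), a log2 fold change of -0.23 ± 0.07 (SE, adjusted p = 0.0236, edgeR). Without KO_D the adjusted p was 0.0509 at a fold of -0.24. This transcript is 18596 bases long, whereas the one used for the AAV hearts has 2913, so the levels of Slc8a1 are not comparable between the experiments.

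**Figure D5:**
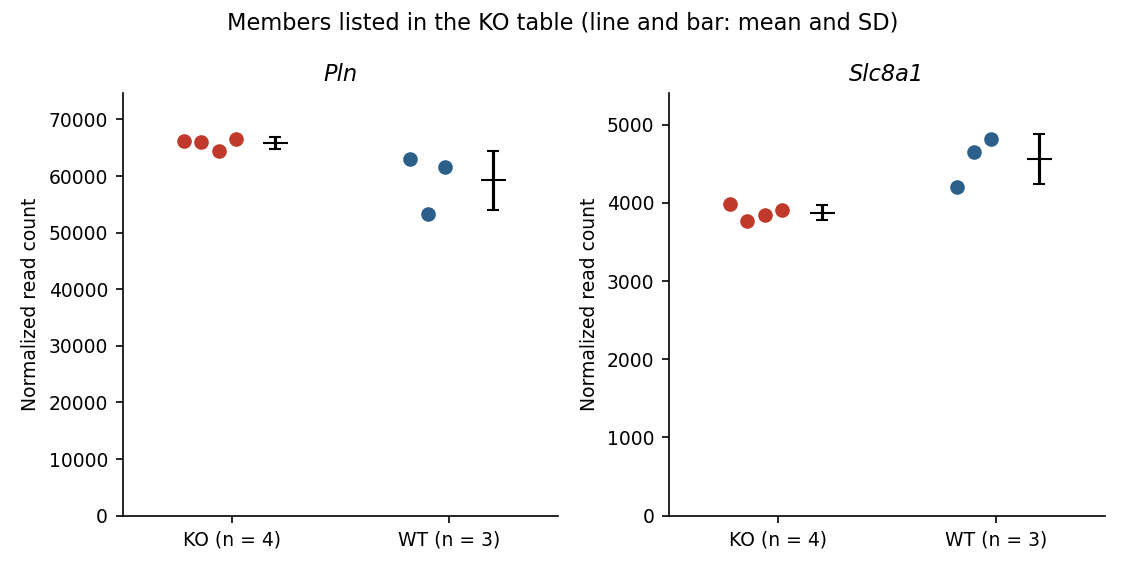
Normalized read counts of Pln (left) and Slc8a1 (right) in 4 KO hearts (red) and 3 WT hearts (blue), with the mean and SD beside the points and axes from 0. For Pln the KO hearts lie between 64378 and 66600, above all WT hearts, and for Slc8a1 between 3763 and 3983, below all WT hearts.

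Slc8a1 was thus the 1 listed member past an adjusted p of 0.05, in a table where 93.5% of the listed genes passed, and KO and WT hearts did not overlap for either member, nor for 66.9% of the listed genes. Among all listed genes, 452 were higher and 698 lower, a split that turned to 476 and 141 with upper quartile factors and to 476 and 479 with library totals as the only scaling. The median fold of all listed genes moved with it, -0.23 with the authors' factors, -0.18 with library totals, -0.11 with DESeq2's own factors and -0.08 with upper quartile factors. Read against that median, Slc8a1 stood at -0.01 and Pln at 0.38 with the authors' factors. A change of scaling moves all genes alike, so these 2 values stay in place by construction and say nothing of stability. Leaving out single hearts moved the value of Slc8a1 between -0.12 (without WT_A) and 0.04. Slc8a1 therefore lay at the middle of the listed genes, 601 of 1230 having a lower fold. Since the list was chosen for differences, its middle marks no unchanged level. With upper quartile factors the fold of Slc8a1 was -0.09 (adjusted p = 0.340) and that of Pln was 0.30 (adjusted p = 0.00567). The upper quartile factors and DESeq2's own were computed from the listed genes alone, so they cannot settle which scaling is right.

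The ratio of the 2 members is free of the scaling. KO hearts had 6.01, 5.69, 5.97 and 5.87 Slc8a1 reads per 100 Pln reads, against 6.68, 8.73 and 7.83 in WT hearts. The KO hearts were close together and all below the WT hearts, and since both genes were listed for their difference no test is given. In the AAV experiment, with its shorter Slc8a1 transcript, the same ratio was 2.39, 2.73, 2.85 and 2.65 in AAV-CTRP9 hearts and 2.76, 3.14 and 3.08 in AAV-Luc hearts. These groups overlapped through CTRP9_611 and Luc_614.

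Of the 72 further calcium handling genes, 12 were listed for KO, 4 higher and 8 lower in KO hearts, all past the adjusted threshold of the refit. Of all listed genes 93.5% passed it, 36.7% higher and 56.7% lower, since the table was chosen on the same hearts. Prkar1a, a regulatory subunit of protein kinase A, had 3835 to 4136 normalized counts in KO hearts and 2971 to 3337 in WT hearts (log2 fold change 0.34 ± 0.07). Prkaca, a catalytic subunit of that kinase, had 2672 to 2787 in KO hearts and 2960 to 3545 in WT hearts (-0.24 ± 0.08). These 2 of its several subunits, in a kinase that phosphorylates phospholamban, were thus listed in opposite directions, each without overlap between the groups. The phosphatase subunits Ppp1cb and Ppp3cb were higher in KO hearts by 0.19 and 0.18 (log2) without overlap, and Asph, which includes the store protein junctin among its products, by 0.38 with overlap.

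The lower ones in KO hearts included the chaperone and calcium buffer Calr, with 2739 to 3043 normalized counts in KO hearts and 3338 to 3820 in WT hearts (-0.30 ± 0.07). Fxyd1, which encodes phospholemman, a regulator of the sodium pump, had 5303 to 5907 in KO hearts and 6360 to 8486 in WT hearts (-0.36 ± 0.10). Speg and Calm3, 1 of the calmodulin genes, were at -0.24 and -0.20 without overlap, and Fkbp1a, Camk2a and Casq1 at -0.25, -0.24 and -0.73 with overlap between KO and WT hearts. The 12 genes kept their direction under the 15 alternatives. With upper quartile scaling, however, the lower genes past the threshold numbered 1 of 8 (Fxyd1), and with DESeq2's own size factors 2 of 8 (Calr and Fxyd1). Both kinds of factors came from the listed genes alone. With library totals as the only scaling 4 of 8 passed. When 1 heart was left out, 1 (without KO_B, KO_D, WT_A or WT_B) to 4 of the 4 higher genes and 3 (without KO_B, KO_C or KO_D) to 7 of the 8 lower ones passed. In the AAV hearts these 12 genes had folds of -0.12 (Speg) to 0.26 (Casq1), and none passed the adjusted threshold. Without Luc_614 the folds were -0.14 (Speg) to 0.48 (Casq1), again with none past it.

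Marker genes of heart muscle were also among those listed for KO. Of 11 cardiomyocyte markers 4 were listed, Myh6, Actc1, Actn2 and Ttn, all lower in KO hearts, by -0.16 (Actn2) to -0.31 (Actc1), around the median of -0.23 over all listed genes. With upper quartile factors they lay at -0.01 (Actn2) to -0.17 (Actc1), beside a median of -0.08, and none of the 4 passed. Acta2, a smooth muscle marker, was at -1.20, the atrial marker Nppa at -0.71 and the fibroblast marker Col1a1 at -0.34, while no endothelial, leukocyte, adipocyte or erythroid marker was listed. Pln stood above 0 while the heart muscle markers stood below it, and Slc8a1 lay within their range. In the AAV hearts 10 of the 11 cardiomyocyte markers had a fold above 0, with a median of 0.14 (log2) beside 0.14 for the 9 members. Without Luc_614, 10 of 11 were again above 0, with medians of 0.13 for the markers and 0.09 for the members. The part of cell composition in the members' values was not tested.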

How the data were processed

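The authors sequenced mRNA of 14 hearts as single reads of 50 bases from strand-specific libraries, trimmed with FastqCleaner, aligned to mm10 with bowtie2 and annotated with biomaRt. The submitters' processing notes also name DESeq2. No version and no counting software was given in the sources used here. The AAV values the authors deposited are log2 CPM of Ensembl transcripts, from which whole reads were recovered for 100% of values (within 1e-06, prior count 1). For KO and WT they deposited raw read counts per RefSeq transcript for transcripts with an unadjusted p under 0.05, with transcript lengths. The signal column deposited there is the authors' mean normalized count and gave their size factors. Library totals came from a deposited RPKM column that sums over libraries. Columns with the authors' own fold changes, statistics and p-values for both comparisons, and 14 further per-sample columns labelled TMM or RPKM, were not used. The columns for KO and WT are not tied to single animals in the sources used here, so libraries are called KO_A to KO_D and WT_A to WT_C. Nothing says that extraction or sequencing batches differed.

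The transcript with the highest mean stood for each symbol. AAV-CTRP9 and AAV-Luc were compared with limma 3.58.1 (intensity trend) over 13219 symbols, and KO and WT with the quasi-likelihood test in edgeR 4.0.16 on 1230 symbols, with a Benjamini-Hochberg threshold of 0.05 for each (R 4.3.3). Fold changes of the AAV hearts are on the log2(CPM) scale with that prior count. Within-heart ratios had 2-sided exact permutation tests over 35 splits. Alternatives were other scalings, filters (mean CPM of at least 1, mean count of at least 10), a prior count of 0.1, the next transcript, all transcripts, DESeq2 1.42.0, limma without the trend, limma-voom, edgeR's quasi-likelihood and likelihood ratio tests on recovered reads, removal of GC content and length trends by splines of 5 degrees of freedom, an adjusted p under 0.1, leaving out single libraries and, chosen after seeing the data, a replicate block by the number in the KO and WT column names. The fits were tested on simulated data. Positions, GC content and sequences are from GENCODE M21 (GRCm38, the same assembly as mm10), counted from 1. Python 3.11.15 with pandas 2.3.3 and matplotlib 3.10.9 made the figures.

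The members and gene lists were chosen with earlier results of these data known. Named genes are the members, C1qtnf9, up to 4 genes per further list with the smallest p, all list genes in the KO table, and the 3 symbols nearest to each member whose standard deviation over the AAV hearts is at least 0.2. Some genes that this rule names are not reported here. Each heart is 1 mouse, and no member was under 1 CPM.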

Additional observations from a re-analysis of the deposited data

How the results depend on the processing

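Between AAV-CTRP9 and AAV-Luc hearts, 0 members passed the threshold under all 19 alternatives. Leaving out 1 heart each, the log2 fold change of Ryr2 ranged over -0.041 (without Luc_614) to 0.46, that of Casq2 over -0.016 (without Luc_624) to 0.15 and that of Slc8a1 over -0.053 (without Luc_614) to 0.19, each changing sign. Trdn ranged over 0.078 (without Luc_614) to 0.82, Hrc over 0.089 to 0.21, Atp2a2 over 0.094 to 0.22, Pln over 0.18 to 0.32, Camk2d over 0.040 to 0.11, S100a1 over -0.19 to -0.019 and Slc8a1 relative to Atp2a2 over -0.15 (without Luc_614) to -0.029 (without Luc_615). Removing GC content and length trends turned Camk2d to -0.0098 and Atp2a2 relative to Pln to 0.080 (exact p = 0.8). The other 5 members kept their direction under all 19. The further calcium handling genes past the threshold numbered 0 to 1 when 1 heart was left out, the 1 being Rrad without Luc_614. For KO and WT, the 1 listed member past the threshold became 2 with library totals as the only scaling, and 0 (without KO_D) to 2 (without WT_A) when 1 heart was left out. Pln ranged over 0.08 to 0.30 and passed under 4 of 15 alternatives, and Slc8a1 ranged over -0.29 to -0.09 and failed under 4 of 15. DESeq2 with its own factors, computed from the listed genes alone, gave Pln 0.27 (adjusted p = 0.00193) and Slc8a1 -0.12 (adjusted p = 0.172). The cause of these shifts was not tested, beyond the change of scaling itself. The sample labels number no replicates, but the column names of KO and WT share the numbers 1, 3 and 4. Libraries with the same number did not deviate together (r = 0.09, -0.17 and -0.40 across 1191 genes, which are not independent replicates). Values centred within such small groups cannot decide whether the shared numbers mark a shared origin. With that number as a replicate block, a fit chosen after seeing the data, 0 listed members passed (Slc8a1 -0.22, adjusted p = 0.0531, and Pln 0.15, adjusted p = 0.0584), and 155 listed genes were higher and 335 lower, against 452 and 698. The AAV hearts share no numbers. Depth was not varied here, and the lowest level of a member in any AAV heart was 39.9 CPM, that of Camk2d.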
